A study of Mus musculus with 435 samples.

Results

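The UDP-glucuronosyltransferases (UGT), sulfotransferases (SULT), glutathione S-transferases (GST) and microsomal glutathione S-transferases (MGST) were examined in livers of leptin receptor deficient mice. Genes were taken by symbol, which matched 39 of the 13379 genes with a value, and all of these except Gsta2 and Gstp1 were kept. The 37 members comprised 9 UGT, 8 SULT, 17 GST and 3 MGST genes, each measured by a single probe set. The UGT genes were 7 of the Ugt2 and 2 of the Ugt3 family, with no Ugt1 gene among them. The mice were the F2 generation of a cross of DBA/2J females with C57BL/6 males that carried the leptin receptor mutation db, and every mouse analysed was db/db and ate chow. There were 118 females and 101 males at 5 weeks of age, and 110 females and 106 males at 12 weeks. Lean mice were not among the groups, so a difference below is between ages, sexes or levels of a trait within obese db/db mice. Glucose ran from 129 mg/dl, in a 5-week female, to 1061 mg/dl, in a 12-week male.

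These enzymes attach a polar group to steroids, bile acids, thyroid hormones, bilirubin, drugs and reactive aldehydes, which makes them easier to excrete in bile and urine. UGT enzymes transfer a sugar, most often glucuronic acid, from a UDP-sugar. SULT enzymes transfer sulfate from the carrier PAPS, and GST enzymes join glutathione to electrophiles. In mouse liver many of these genes are known to differ between the sexes and to respond to growth hormone, nuclear receptors and the stress regulator NRF2.

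The upstream 250 bases of 5 members are shown because the results turn on these genes: Gstm2 and Gstm3 varied together more than any other pair of members, and Gstp3, Ugt3a1 and Sult1d1 had some of the largest age differences. The sequences are from RefSeq on the mouse build GRCm38.p6, 5′ to 3′ on the strand of the gene and ending at the base before the annotated start. Capitals mark matches, on either strand, to the core of an aryl hydrocarbon receptor site (GCGTG), an HNF1 core (GTTAAT), the core promoter element TATAAA, the antioxidant response element through which NRF2 acts (TGACNNNGC) or a STAT site (TTCNNNGAA).
Gstm2, chr3:107986421-107986670, minus strand: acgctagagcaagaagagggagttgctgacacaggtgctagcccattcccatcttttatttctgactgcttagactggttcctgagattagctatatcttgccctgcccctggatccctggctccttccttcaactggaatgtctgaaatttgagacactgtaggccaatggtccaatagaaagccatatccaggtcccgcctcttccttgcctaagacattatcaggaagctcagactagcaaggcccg
Gstm3, chr3:107969175-107969424, minus strand: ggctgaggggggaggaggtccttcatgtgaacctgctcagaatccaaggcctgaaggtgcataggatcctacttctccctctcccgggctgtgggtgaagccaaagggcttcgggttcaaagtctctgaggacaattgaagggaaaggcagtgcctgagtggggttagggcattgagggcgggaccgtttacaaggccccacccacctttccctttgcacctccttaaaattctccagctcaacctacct
Gstp3, chr19:4059448-4059697, minus strand: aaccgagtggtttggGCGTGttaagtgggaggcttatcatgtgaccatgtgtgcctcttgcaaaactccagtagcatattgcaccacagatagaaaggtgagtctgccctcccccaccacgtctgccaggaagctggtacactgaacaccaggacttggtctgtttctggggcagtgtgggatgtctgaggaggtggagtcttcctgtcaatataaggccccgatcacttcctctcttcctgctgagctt
Ugt3a1, chr15:9279579-9279828, plus strand: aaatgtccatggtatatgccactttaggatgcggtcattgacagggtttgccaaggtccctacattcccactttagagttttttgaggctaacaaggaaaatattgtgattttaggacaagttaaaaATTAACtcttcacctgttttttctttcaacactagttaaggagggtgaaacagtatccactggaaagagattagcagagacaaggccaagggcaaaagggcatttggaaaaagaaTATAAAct
Sult1d1, chr5:87569007-87569256, minus strand: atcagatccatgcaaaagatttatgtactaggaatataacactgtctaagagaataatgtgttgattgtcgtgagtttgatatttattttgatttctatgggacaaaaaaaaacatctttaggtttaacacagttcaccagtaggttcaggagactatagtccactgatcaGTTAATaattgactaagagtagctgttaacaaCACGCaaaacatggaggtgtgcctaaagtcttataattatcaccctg
Gstm2 and Gstm3 held none of the 5 motifs in this window, whereas Ugt3a1 held an HNF1 core and the core promoter element, Sult1d1 an HNF1 core and a receptor core, and Gstp3 a receptor core. A RefSeq promoter was found for 33 of the 37 members. The antioxidant response element was found in 4 of them (Gsta3, Gstm5, Gstm7 and Mgst1), or 12.1%, and in 10.2% of the 32851 promoters in the table. The HNF1 core was found in 5 members (15.2%, against 6.43% of all promoters), the receptor core in 7 (21.2% against 28.2%), the core promoter element in 5 (15.2% against 12.4%) and the STAT site in 1 (3.03% against 7.02%). A member with several annotated starts was counted once there, while each start was counted in the table. Counted by start, the 44 promoters of members held the antioxidant response element in 9.09%, the HNF1 core in 11.4%, the receptor core in 18.2%, the core promoter element in 13.6% and the STAT site in 2.27%, so the share with the antioxidant response element lay below that of the table when counted in this like way. Matches to different motifs may overlap. These matches describe letters only.

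Values were log2 expression, in which a difference of 1 is a doubling of signal. A gene was called when its adjusted p in limma, over all 13379 genes, was under 0.05. Errors given as ± are SE. The hepatocyte markers averaged 13.06 to 13.55 in every mouse, on arrays whose medians lay between 5.56 and 5.70. The mean of 2 acinar markers reached 11.28 in a 12-week male (group median 7.19). That of 5 muscle markers reached 9.80 in a 5-week female (group median 5.06). In 8 arrays X-linked genes lay nearer to the level of the other sex. Many members sit in clusters of similar genes. In chromosomal order, chromosome 5 held Ugt2b34, Ugt2b1, Ugt2b35, Ugt2b36, Ugt2b5, Ugt2b37, Ugt2a3, Sult1b1 and Sult1d1, and chromosome 3 held Mgst2, Gstm5, Gstm7, Gstm6, Gstm3, Gstm2, Gstm1 and Gstm4. A probe set for one of them may also take up RNA of a near-identical neighbour, so a single member of the Ugt2b or Gstm cluster is uncertain to that extent. The probe sets of Ugt3a1 and Gsto1 also carry name endings that mark probes able to match several genes, and Ugt3a1 lies beside the similar gene Ugt3a2.

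After removal of group and batch, the members varied more between mice than most genes. Their median residual SD was 0.24, against 0.18 over all genes, 27 of the 37 lay above that all-gene median and 11 lay above the 90th percentile. Ugt2b37 (0.45), Mgst3 and Gstm3 (0.43 each) and Gstp3 (0.37) had the largest residual SD. The mean level of Ugt2b37 was 5.93, near the array medians, while Ugt2b1, Ugt2b5 and Ugt2b36 of its cluster had 13.19, 13.44 and 13.76. Ugt2b36 (0.078) and Gstz1 (0.079), the isomerase of tyrosine breakdown, varied least. Only 3 members, Mgst2, Sult2b1 and Sult4a1, had a mean level below the 25th percentile of all genes. Most members had a mean level above the 90th percentile, and the members were not compared with genes of like level. Group membership accounted for 53.9% of the variance of Sult1d1, 53.0% of that of Ugt3a1 and 48.2% of that of Ugt2b1.

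The first comparison was between mice of 5 and 12 weeks, since the study collected liver at these ages. Traits differed between these ages too. At 5 and 12 weeks, median glucose was 224 and 460.5 mg/dl in females and 240 and 599.5 in males. Median insulin, females first, was 50.0 and 128 µIU/ml, then 45.4 and 61.05. Liver fat fraction was 0.156 and 0.203, then 0.148 and 0.226, and body fat 36.6 and 54.9%, then 33.5 and 53.4%. The part of these traits in the age differences was not tested. Of the 37 members, 25 were called in females (9 higher and 16 lower at 12 weeks) and 25 in males (13 higher and 12 lower). This was 67.6% of the members in each sex, and over all genes 46.2% were called in females and 46.3% in males. The median size of the age difference among members was 0.10 in females and 0.13 in males, against 0.05 over all genes in each sex. Sult1d1 had the deepest fall in each sex, and Ugt3a1 and Mgst3 were among the largest rises in each sex.

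Sult1d1, which sulfates catecholamines and other small phenols, fell most. Its level ran from 9.58 through a median of 10.45 to 11.47 in 5-week females, and from 8.39 through 9.53 to 10.36 in 12-week females. In males the lowest, median and highest values were 9.64, 10.50 and 11.27 at 5 weeks and 8.69, 9.85 and 10.80 at 12 weeks. All 110 older females lay below the median of the younger females, and 58 lay below their lowest value. It fell by 0.93 ± 0.05 in females (1.91-fold lower, adjusted p = 7.71e-58) and in males it fell by 0.71 ± 0.05 (1.63-fold lower, adjusted p = 2.61e-34).

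Sult2a8, a bile acid sulfotransferase, had medians of 12.85 (range 12.04 to 13.32) in 5-week and 12.16 (10.62 to 13.16) in 12-week females, and of 12.94 (12.33 to 13.44) and 12.51 (10.89 to 13.10) in males. Of the 12-week mice, 106 of 110 females and 100 of 106 males lay below the 5-week median of their sex. Its spread was also wider at 12 weeks, with an SD of 0.47 against 0.26 in females and 0.40 against 0.20 in males. It fell by 0.69 ± 0.05 in females (adjusted p = 2.82e-38) and by 0.52 ± 0.05 in males (adjusted p = 9.79e-22). Sult1a1, the main phenol sulfotransferase, fell by 0.23 ± 0.03 and 0.13 ± 0.03 in females and males. Sult1c2 fell by 0.14 ± 0.04 and 0.18 ± 0.04 and Sult5a1 by 0.15 ± 0.04 and 0.12 ± 0.04. In all, 5 of the 8 SULT genes were lower in each sex and 1 was higher: Sult2b1 in females (0.05 ± 0.02) and Sult1b1, which sulfates thyroid hormones, in males (0.20 ± 0.03). The call of Sult2b1 was lost without any 1 of batches 1, 2 and 3 (adjusted p from 0.0535 to 0.108), with plate as a random block (0.0787) and with no batch term (0.149). That of Sult5a1 in males was lost without batch 1 (-0.09, adjusted p = 0.162) or batch 3 (-0.11, adjusted p = 0.0527).

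Gstp3, of the pi class, fell in both sexes. Its medians were 9.65 (8.92 to 10.54) and 9.16 (7.91 to 9.98) in females at 5 and 12 weeks, and 9.33 (8.53 to 10.18) and 8.77 (7.55 to 9.51) in males. At 12 weeks 102 of 110 females and 98 of 106 males lay below the 5-week median of their sex. Females had a fall of 0.59 ± 0.05 (log2 -0.59, adjusted p = 3.56e-26) and males one of 0.60 ± 0.05 (log2 -0.60, adjusted p = 1.96e-24). Among the mu class, Gstm6 fell by 0.32 ± 0.03 and 0.19 ± 0.03 and Gstm7 by 0.29 ± 0.02 and 0.22 ± 0.03 in females and males, and Gstt3 of the theta class fell by 0.29 ± 0.05 and 0.14 ± 0.05. Gstm1 (0.08 ± 0.03 and 0.13 ± 0.04) and Gstt1 (0.13 ± 0.02 and 0.14 ± 0.02) rose. In batch 4 alone the Gstm1 difference was -0.06 in females and -0.01 in males, and the female call was lost without batch 1 (adjusted p = 0.174) or batch 2 (0.272), with plate as a random block (0.0826) and with no batch term (0.0952). The call of Gstt3 in males was lost without batch 4 (-0.12, adjusted p = 0.0578).

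Ugt3a1, whose family uses sugars other than glucuronic acid, rose most among the UGT genes. Its medians were 10.73 (9.60 to 11.22) and 11.26 (10.80 to 11.59) in females at 5 and 12 weeks, and 10.86 (9.73 to 11.35) and 11.32 (10.97 to 11.73) in males. All 110 older females and all 106 older males lay above the 5-week median of their sex. The groups still overlapped through the upper part of the 5-week range, and the SD was 0.36 against 0.16 in females and 0.35 against 0.13 in males. Ugt3a1 rose by 0.60 ± 0.04 in females (1.51-fold, adjusted p = 1.87e-44), and the rise in males was 0.53 ± 0.04 (1.45-fold, adjusted p = 8.17e-34). Its neighbour Ugt3a2 rose by 0.13 ± 0.02 and 0.22 ± 0.02, and Ugt2b1, of the family that conjugates steroids, fell by 0.21 ± 0.03 and 0.24 ± 0.03. Ugt2b37 fell by 0.19 ± 0.06 in females and 0.22 ± 0.06 in males. Its female call was lost without batch 1 (-0.14, adjusted p = 0.0711) or batch 4 (-0.12, adjusted p = 0.150), and its male call without batch 2 (-0.15, adjusted p = 0.141).

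Mgst3, a membrane-bound enzyme of glutathione and leukotriene metabolism, had medians of 10.46 (9.03 to 11.13) and 10.89 (10.02 to 11.65) in females and of 10.24 (8.89 to 11.15) and 10.71 (9.17 to 11.48) in males at 5 and 12 weeks. The rise was 0.48 ± 0.06 for females (adjusted p = 1.49e-14), and for males 0.63 ± 0.06 (adjusted p = 6.84e-21). The level passed the 5-week median of the same sex in 95 of 110 older females and 88 of 106 older males.

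**Figure D1:**
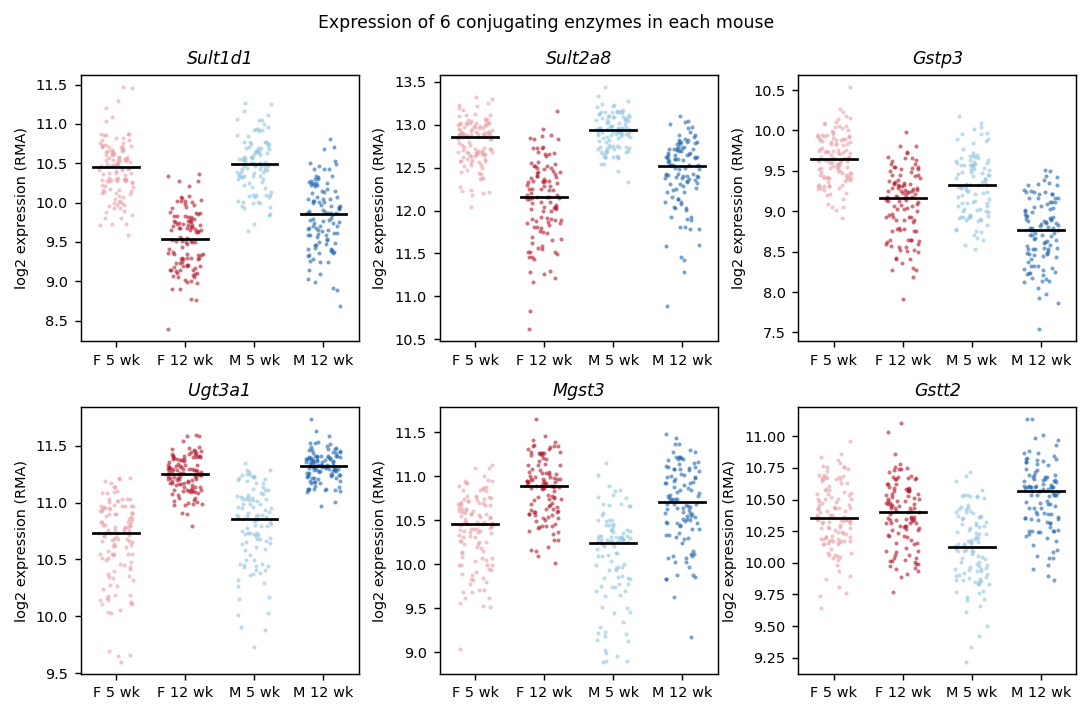
Log2 expression (RMA) of 6 members in each of the 435 mice, by sex (F, M) and age in weeks, with black lines at the group medians. Sult1d1, Sult2a8 and Gstp3 were lower and Ugt3a1 and Mgst3 higher at 12 weeks in both sexes, while the Gstt2 medians were 10.36 and 10.40 in females and 10.12 and 10.57 in males.

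For 8 members (21.6%) the age difference itself differed between the sexes, against 8.56% of all genes, and each had the more positive change in males. Of all genes called for this term, 768 had the more positive change in males and 377 the more negative. The largest such term was that of Gstt2 (0.38 ± 0.05, adjusted p = 9.17e-10). Gstt2 medians were 10.36 (9.64 to 10.97) and 10.40 (9.77 to 11.10) in females at 5 and 12 weeks, and 10.12 (9.22 to 10.71) and 10.57 (9.86 to 11.13) in males. It rose by 0.40 ± 0.04 in males, above the 5-week median in 97 of 106 mice, and the female difference was 0.02 ± 0.04 (adjusted p = 0.757).

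Gsta4, which conjugates the lipid peroxidation product hydroxynonenal, rose by 0.48 ± 0.05 in males and 0.14 ± 0.05 in females, a difference of 0.34 ± 0.07 (adjusted p = 5.20e-05). Without batch 3 the female rise was 0.08, with an adjusted p of 0.258. Sult1b1 (0.23 ± 0.05), Gstm2 (0.20 ± 0.05), Gstm4 (0.19 ± 0.05), Gstk1 (0.11 ± 0.025) and Ugt3a2 (0.09 ± 0.02) had smaller terms. For Sult1d1 the term was 0.23 ± 0.07, with the smaller fall in males. Leaving out batch 3 ended the call for Gstm2 (0.14, adjusted p = 0.134), leaving out batch 2 (0.24, adjusted p = 0.0645) or batch 4 (0.18, adjusted p = 0.153) ended it for Sult1d1, and leaving out batch 4 ended it for Ugt3a2 (0.07, adjusted p = 0.0850).

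**Figure D2:**
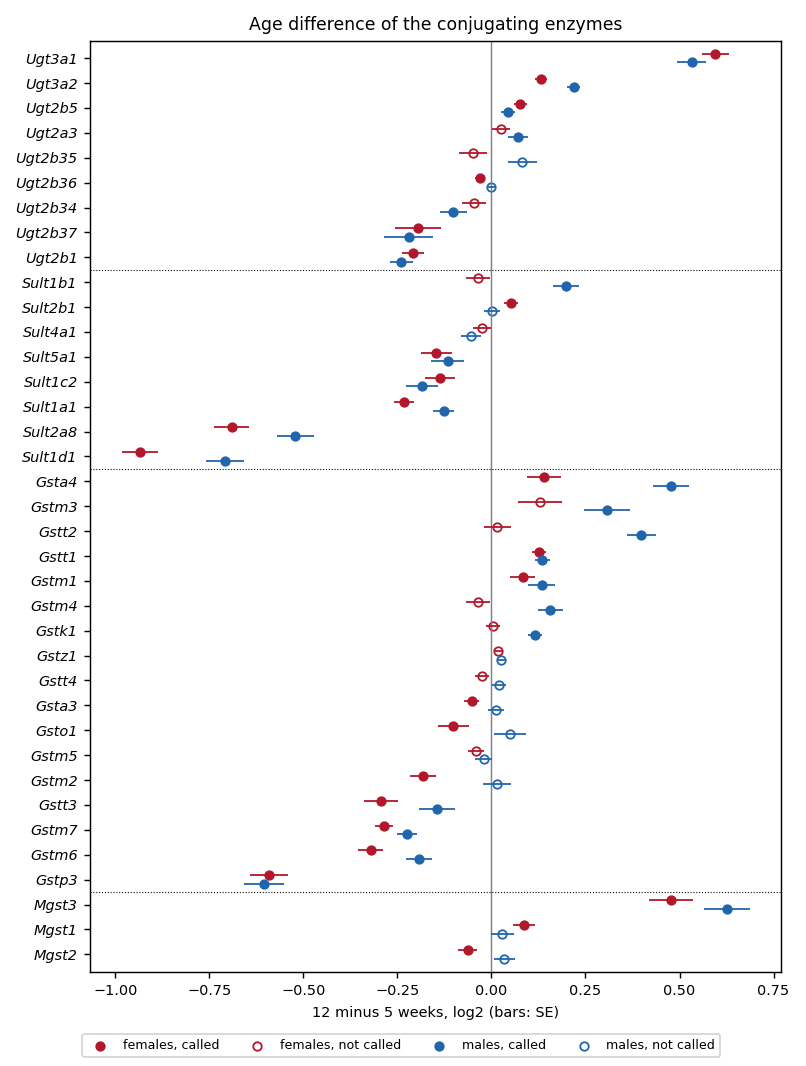
Age difference (12 minus 5 weeks, log2, with SE bars) of the 37 members in females (red) and males (blue), grouped from top to bottom as UGT, SULT, GST and MGST genes; filled points were called. The widest gaps between the sexes were at Gstt2 (0.02 in females and 0.40 in males) and Gsta4 (0.14 and 0.48).

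The next comparison was between males and females of the same age. At 5 weeks 26 members were called (11 higher and 15 lower in males), or 70.3%, against 24.9% of all genes. At 12 weeks 23 were called (14 higher and 9 lower), or 62.2%, against 18.1% of all genes. Of all genes called, 1407 were higher and 1929 lower in males at 5 weeks, and 1200 and 1215 at 12 weeks. These groups are the 4 of the age comparison, so both comparisons share their mice. Among the calls at 5 weeks, of the 9 UGT genes 7 were higher in males and 0 lower, while of the 17 GST genes 0 were higher and 11 lower, and the counts in limma at an unadjusted p under 0.05 were the same. At 12 weeks 6 of 9 UGT genes were higher and 0 lower, again also without adjustment, whereas the GST genes divided into 4 higher and 6 lower. Whether the families differed was not tested.

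Among the members, Ugt2b1 had the most males beyond the female median at each age, though not the largest log2 difference. At 5 weeks its medians were 13.12 in females (12.54 to 13.70) and 13.52 in males (12.72 to 13.99), and at 12 weeks they were 12.93 (12.38 to 13.32) and 13.26 (12.67 to 13.81). Of the males, 96 of 101 at 5 weeks and 99 of 106 at 12 weeks lay above the female median of their age. The difference was 0.37 ± 0.03 at 5 weeks (1.30-fold, adjusted p = 9.67e-29) and 0.34 ± 0.03 at 12 weeks (1.27-fold, adjusted p = 1.72e-24).

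Ugt2b35 was higher in males by 0.24 ± 0.04 at 5 weeks and 0.37 ± 0.04 at 12 weeks (adjusted p = 2.12e-19), and 96 of 106 males at 12 weeks lay above the female median. Ugt2b5, another steroid-conjugating enzyme, was higher by 0.18 ± 0.02 and 0.15 ± 0.02. Ugt2a3 was higher by 0.08 ± 0.025 and 0.12 ± 0.025, the former lost without batch 3 (0.06, adjusted p = 0.128). Ugt2b36, the member with the least spread, was higher by 0.06 ± 0.01 and 0.09 ± 0.01. Ugt3a1 was higher in males at 5 weeks (0.13 ± 0.04), a call that was lost without batch 1 (0.10, adjusted p = 0.100).

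Among the sulfotransferases, Sult5a1 medians were 6.49 (5.95 to 7.57) in females and 6.81 (6.21 to 7.85) in males at 5 weeks, and 6.35 (5.86 to 7.27) and 6.64 (5.92 to 7.75) at 12 weeks. It was higher in males by 0.30 ± 0.04 and 0.33 ± 0.04. Sult1b1 was higher by 0.12 ± 0.03 at 5 weeks and 0.36 ± 0.03 at 12 weeks (adjusted p = 3.52e-22), where 97 of 106 males lay above the female median. Sult2a8 was higher by 0.29 ± 0.05 at 12 weeks. Its difference of 0.13 ± 0.05 at 5 weeks lost the call without any 1 of batches 1 to 4 (0.10 to 0.14, adjusted p from 0.0559 to 0.204). Sult1d1 was higher in males at 12 weeks (0.27 ± 0.05), and its value at 5 weeks was 0.05 ± 0.05 (adjusted p = 0.518). Sult1c2 ran the other way, with a male minus female difference of -0.17 ± 0.04 at 5 weeks and -0.22 ± 0.04 at 12 weeks.

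The glutathione transferases lower in males were led by Gstt3 and Gstp3. Gstt3 medians were 11.49 (10.40 to 11.87) in females and 11.14 (9.59 to 11.72) in males at 5 weeks, and 11.21 (10.13 to 11.76) and 10.98 (9.57 to 11.60) at 12 weeks. The male minus female difference was -0.40 ± 0.05 at 5 weeks (adjusted p = 2.28e-15) and -0.25 ± 0.05 at 12 weeks (adjusted p = 1.54e-06). Gstp3 had -0.33 ± 0.05 and -0.34 ± 0.05, and 82 of 101 males at 5 weeks and 86 of 106 at 12 weeks lay below the female median. Mgst3 had -0.31 ± 0.06 at 5 weeks and -0.16 ± 0.06 at 12 weeks, and the latter call was lost without batch 2 (-0.17, adjusted p = 0.163) or batch 4 (-0.11, adjusted p = 0.271).

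Gstt2 was lower in males at 5 weeks (-0.25 ± 0.04) and higher at 12 weeks (0.13 ± 0.04). Gsta4 was lower at 5 weeks (-0.28 ± 0.05), with a value of 0.06 ± 0.05 at 12 weeks (adjusted p = 0.424). Gstm3 (0.27 ± 0.06) and Gstm2 (0.15 ± 0.04) were higher in males at 12 weeks, and at 5 weeks had values of 0.09 ± 0.06 and -0.05 ± 0.04 that did not pass. Gstm7 was lower in males at 12 weeks (-0.10 ± 0.025), a call lost without batch 2 (-0.07, adjusted p = 0.204). With glucose and insulin as covariates, 9 of the 23 members called at 12 weeks lost the call and 14 kept it. The difference of Gstp3 was then -0.12 (adjusted p = 0.111), that of Mgst3 was -0.16 (adjusted p = 0.0527), that of Gstt2 was 0.10 (adjusted p = 0.0550) and that of Ugt2a3 was 0.05 (adjusted p = 0.253). The others that lost it were Gstt1 (adjusted p = 0.284), Ugt3a2 (0.866), Gsta3 (0.257), Sult2b1 (0.337) and Gstz1 (0.213).

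**Figure D3:**
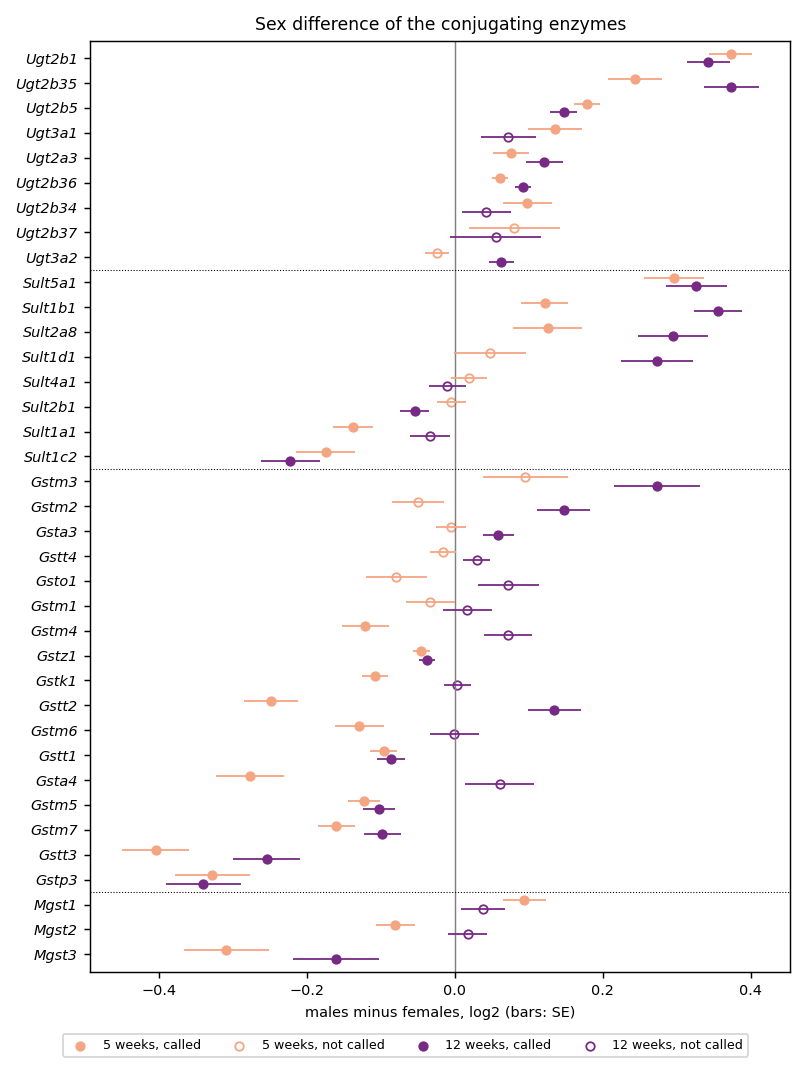
Sex difference (males minus females, log2, with SE bars) of the 37 members at 5 weeks (orange) and 12 weeks (purple), grouped from top to bottom as UGT, SULT, GST and MGST genes; filled points were called. Ugt2b1 (0.37 and 0.34) and Sult5a1 (0.30 and 0.33) lay to the right at both ages, Gstp3 (-0.33 and -0.34) to the left, and Gstt2 changed side (-0.25 and 0.13).

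Markers of other liver cells moved with the groups. Of all genes, 46.2% were called with age in females (2952 higher and 3235 lower) and 46.3% in males (2982 and 3216). Between the sexes at 12 weeks 18.1% were called (1200 higher and 1215 lower in males). Of 15 measured macrophage markers, 10 were lower at 12 weeks in females and 14 in males, and 12 were lower in males than in females at 12 weeks, with 0 higher in each of these comparisons in limma, also at an unadjusted p under 0.05. Their mean level per mouse had medians of 8.17 (7.76 to 8.87) and 8.02 (7.51 to 8.53) in females at 5 and 12 weeks, and of 8.10 (7.79 to 8.60) and 7.83 (7.40 to 8.52) in males. Of 13 hepatocyte markers, 3 were higher and 7 lower at 12 weeks in females, and 2 and 7 in males. In whole liver, fewer cells of a type and less RNA per cell cannot be told apart. The part of these markers in the members' differences was not tested.

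The third comparison was among mice of the same age and sex that differed in metabolic traits. Slopes below give the log2 difference in expression that went with 1 SD of a trait, with sex and batch in the fit. At 12 weeks the slopes on liver fat fraction called 23 members (7 positive and 16 negative), or 62.2%, against 26.0% of all genes. Insulin called 22 (11 positive and 11 negative), or 59.5% of members against 27.5% of all genes. In the same order, triglycerides called 17 (45.9% against 19.6%) and total cholesterol 15 (40.5% against 13.6%). Glucose called 13 (35.1% against 12.9%) and body fat percent 9 (24.3% against 6.74%). At 5 weeks the counts were 15 for cholesterol (40.5% of members against 18.0% of all genes) and 15 for body fat percent (40.5% against 13.8%). There were 12 for triglycerides (32.4% against 14.6%) and 8 for glucose (21.6% against 8.12%). Liver fat fraction had 6 (16.2% against 5.60%) and insulin 2 (5.41% against 2.45%). The same mice entered every slope at an age, except 1 male of 12 weeks with no liver fat value, so the slopes on different traits are side by side readings of the same mice. With liver fat at 12 weeks 4 of 15 macrophage markers rose and 1 fell, and with insulin 5 rose and 1 fell; of 13 hepatocyte markers 2 rose and 6 fell with liver fat, and 3 rose and 5 fell with insulin. Their part in the members' slopes was not tested.

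The slopes on liver fat at 12 weeks were read by family, beside the 1742 positive and 1733 negative slopes called over all genes. The 17 GST genes divided, with 6 positive and 5 negative slopes and a median of -0.0031. Within them, of the 7 mu class (Gstm) genes 4 had a positive slope and 0 a negative one. Of the 9 UGT genes 6 had a negative slope and 0 a positive one, and of the 8 SULT genes 5 and 0. In limma at an unadjusted p under 0.05 these counts were 4 and 0 for the Gstm genes, 7 and 0 for the UGT genes, and 5 negative and 2 positive for the SULT genes. With insulin in the fit beside liver fat, 3 of the 6 UGT calls were lost, those of Ugt2b36 (adjusted p = 0.147), Ugt2b5 (0.130) and Ugt3a2 (0.454), as was that of Gstm4 (0.0589). Single batches also decided some of these calls. Without batch 2 the slopes of Ugt2b5 (-0.012, adjusted p = 0.506), Ugt2b36 (-0.018, adjusted p = 0.147), Sult5a1 (-0.025, adjusted p = 0.552) and Gstm4 (0.05, adjusted p = 0.0569) lost the call. Without batch 4 those of Ugt2b5 (adjusted p = 0.133), Ugt2b36 (0.267) and Sult1d1 (-0.042, adjusted p = 0.357) did, and Sult1d1 lost it without batch 3 as well (adjusted p = 0.0565).

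Gstm3 had the steepest slope on liver fat, 0.30 ± 0.03 per SD (adjusted p = 1.46e-20). In the 27 females of 12 weeks with the least liver fat (fractions of 0.14 to 0.184) its level ran from 9.87 through a median of 10.52 to 11.46. In the 27 with the most (0.234 to 0.291) it ran from 10.84 through 11.29 to 12.43. The medians in the 26 males with the least and the 26 with the most were 10.91 and 11.63. The slope was 0.33 ± 0.04 in females alone and 0.28 ± 0.04 in males alone. Gstm2 (0.17 ± 0.02, adjusted p = 1.07e-19) and Gstm1 (0.14 ± 0.02) rose with liver fat too, as did Gstp3 (0.21 ± 0.02, adjusted p = 2.21e-14).

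Sult2a8 fell most with liver fat, with a slope of -0.24 ± 0.02 (adjusted p = 6.64e-17). Its median in females was 12.34 (11.91 to 12.88) in the 27 with the least liver fat and 11.62 (10.62 to 12.32) in the 27 with the most. In males these medians were 12.73 (11.79 to 13.10) and 12.04 (10.89 to 12.73). At 5 weeks its slope was also negative (-0.08 ± 0.01). Ugt2a3 (-0.10 ± 0.01), Sult1b1 (-0.10 ± 0.02), Sult1a1 (-0.09 ± 0.01), Gsta4 (-0.08 ± 0.02) and Ugt2b1 (-0.08 ± 0.01) fell as well at 12 weeks. The slope of Gsta4 lost its call when insulin was fitted beside liver fat (-0.04, adjusted p = 0.196).

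With insulin at 12 weeks, Gstp3 had the steepest slope, 0.24 ± 0.02 per SD (adjusted p = 3.65e-19). Its median in 12-week females was 8.56 (7.91 to 9.64) in the 27 with the lowest insulin (10.5 to 70.9 µIU/ml) and 9.36 (8.36 to 9.81) in the 27 with the highest (186 to 283 µIU/ml). In males the medians were 8.38 and 8.97. Gstm3 rose with insulin by 0.21 ± 0.03 (adjusted p = 3.32e-09). Gstm2 (0.10 ± 0.02) and Gstm1 (0.09 ± 0.02) rose too, but when liver fat was fitted beside insulin their insulin slopes were 0.02 (adjusted p = 0.468) and 0.04 (adjusted p = 0.130). Their slopes on liver fat remained called in that fit, at 0.16 and 0.12.

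The members that fell with insulin included Sult1a1 (-0.11 ± 0.01, adjusted p = 6.52e-11), Gsta4 and Gstt3 (-0.10 ± 0.02 each) and Ugt2a3 (-0.07 ± 0.01). Gsta4 lost this call without batch 2 (-0.05, adjusted p = 0.127), and Ugt2a3 lost it with liver fat in the fit (-0.03, adjusted p = 0.0996). With triglycerides at 12 weeks the signs of several genes were opposite to those with insulin: Gstp3 had -0.20 ± 0.02 (adjusted p = 1.38e-12), Gstm1 -0.08 ± 0.02, and Sult1a1 0.12 ± 0.01 (adjusted p = 3.54e-13). Ugt2b35 rose with triglycerides by 0.095 ± 0.016. With glucose, Gstp3 had -0.15 ± 0.03 and Sult1a1 0.10 ± 0.01. With glucose and insulin in the same fit the glucose slope of Gstp3 was -0.05 (adjusted p = 0.285).

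**Figure D4:**
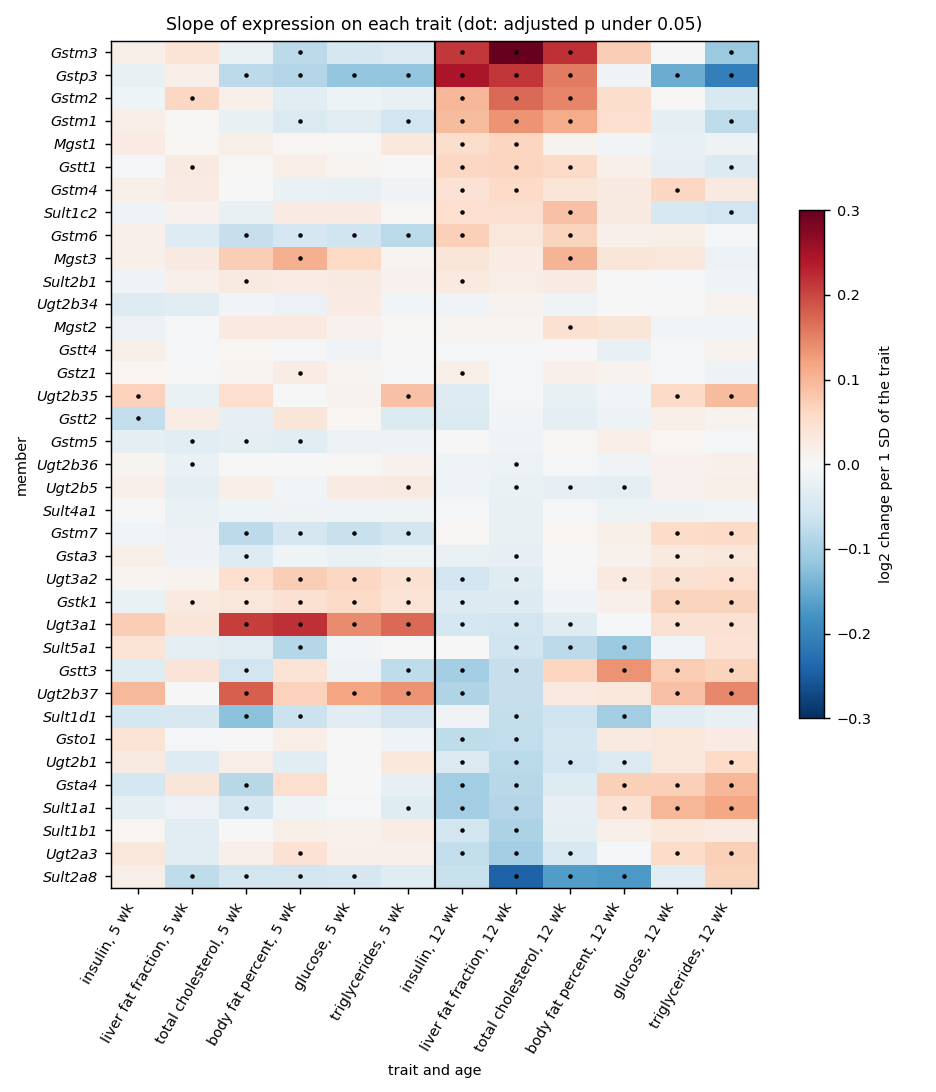
Slope of each member (rows, ordered by the liver fat slope at 12 weeks) on 6 traits at 5 weeks (left of the line) and 12 weeks (right), in log2 per 1 SD of the trait; red is positive, blue negative, and dots mark an adjusted p under 0.05. Gstm3 (0.30) and Sult2a8 (-0.24) had the most positive and most negative liver fat slopes at 12 weeks, and Ugt3a1 had its steepest slopes at 5 weeks.

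At 5 weeks the traits with the steepest slopes were others. Ugt3a1 rose with body fat percent (0.22 ± 0.02, adjusted p = 1.98e-20), total cholesterol (0.21 ± 0.02, adjusted p = 1.54e-17), triglycerides (0.17 ± 0.02) and glucose (0.14 ± 0.02). Ugt3a2 rose with the same 4 traits by 0.045 to 0.074. Ugt2b37 rose with cholesterol (0.18 ± 0.03). Sult1d1 fell with cholesterol by 0.12 ± 0.02 per SD (slope -0.12, adjusted p = 3.27e-07), and Gstp3 fell with triglycerides and with glucose by 0.12 ± 0.02 each (slopes -0.12).

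Differences between slopes were tested directly. The insulin slope differed between 12 and 5 weeks for 14 members (37.8%, against 13.2% of all genes), led by Gstp3 (0.28 ± 0.03) and Gstm3 (0.19 ± 0.04). The glucose slope differed between ages for 6 members (16.2%, against 6.58% of all genes), led by Gstm7 (0.12 ± 0.02). Between the sexes at 12 weeks the glucose slope differed for 4 members (10.8%, against 2.50% of all genes) and the insulin slope for 1 (2.70%, against 0.0972% of all genes). That gene was Ugt2b37, whose level lay near the array medians. Its insulin slope was -0.20 ± 0.04 in females and 0.03 ± 0.04 in males, a difference of 0.25 ± 0.05. This call was lost without batch 1 (adjusted p = 0.0635), batch 2 (0.999) or batch 4 (0.0879), and with glucose in the fit (0.278).

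Members also varied together within groups. Pearson correlations were taken in each of the 4 groups after batch means were removed (118, 101, 108 and 106 mice) and averaged. They describe mice whose arrays share processing, and probe sets of similar genes can share targets. Over 666 pairs the median was 0.03, with 16 pairs above 0.5 and 14 below -0.3. Gstm2 and Gstm3, whose upstream sequences are printed above, were highest at 0.81 (0.72 to 0.88 over the groups). They were followed by Ugt3a1 with Ugt3a2 (0.69), Ugt2b1 with Ugt2b5 (0.69), Sult2a8 with Ugt2b1 (0.65) and Ugt2b36 with Ugt2b5 (0.64). The lowest pairs all held Gstp3, with Ugt3a1 (-0.53), Ugt3a2 (-0.52) and Ugt2b5 (-0.50). Except for Sult2a8 with Ugt2b1, which lie on chromosomes 7 and 5, each of the 5 highest pairs joined genes on 1 chromosome.

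**Figure D5:**
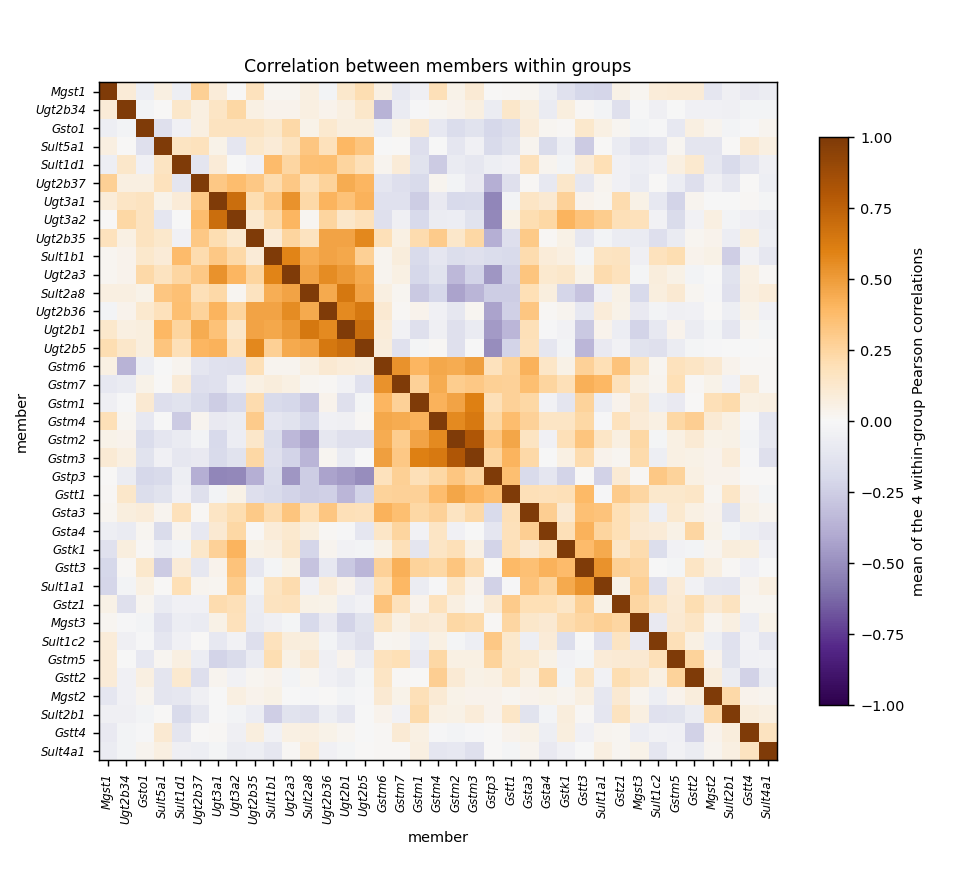
Mean of the 4 within-group Pearson correlations for every pair of members, ordered by similarity; orange is positive and purple negative. Sult2a8 and Sult1b1 were positively correlated with Ugt2b1 (0.65 and 0.46), Gstm3 with Gstm4 (0.64), and Gstp3 was negatively correlated with Ugt3a1 (-0.53), least so among the UGT genes with Ugt2b34 (-0.077).

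Genes that supply, regulate or follow conjugation were read from lists, beside the 46.2% of all genes called with age in females (2952 higher and 3235 lower) and the 46.3% in males (2982 higher and 3216 lower). Of 8 genes of sulfate activation and transport, 2 were higher and 5 lower at 12 weeks in females, and 2 and 3 in males. Papss2, which makes the sulfate donor PAPS, fell by 0.47 ± 0.07 in females and 0.21 ± 0.07 in males, and the sulfate carrier Slc26a1 by 0.31 ± 0.05 in each. Of 5 UDP-sugar genes, 1 was higher and 2 lower in females, and 1 higher and 0 lower in males (in limma at an unadjusted p under 0.05, 2 and 2 in females and 1 and 0 in males). The gene that rose in each sex was Ugdh, which makes UDP-glucuronic acid (0.12 ± 0.03 and 0.20 ± 0.03). Of 18 glutathione genes, 8 were higher and 6 lower in females and 6 and 6 in males. Gclc, of the first step of glutathione synthesis, rose by 0.36 ± 0.03 in females, and Gss, of the last step, by 0.37 ± 0.03 in males.

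Of 21 measured NRF2 targets outside the families, 12 were higher and 4 lower at 12 weeks in females, and 13 and 4 in males. Of all 13379 genes, 2952 were higher and 3235 lower in females, and 2982 and 3216 in males. The list's median change was 0.11 and 0.135, against 0.0025 and -0.0043 over all genes. Aox1 (0.87 ± 0.04 and 0.82 ± 0.04) and the conjugate exporters Abcc3 (0.54 ± 0.03 and 0.62 ± 0.03) and Abcc4 (0.40 ± 0.06 and 0.88 ± 0.07) led it. With liver fat at 12 weeks, where 26.0% of all genes were called, 9 of the 21 rose and 0 fell, also without adjustment in limma, led by Pgd (0.30 ± 0.03) and Srxn1 (0.16 ± 0.01). With age, 8 of 13 exporters and carriers were higher and 4 lower in females, and 6 and 3 in males. Of 23 receptors and factors, 9 were higher and 5 lower with age in females and 10 and 5 in males. Ahr fell by 0.43 ± 0.05 and 0.45 ± 0.05, and Nfe2l2, which encodes NRF2, rose by 0.19 ± 0.07 and 0.57 ± 0.07. Some genes, such as Ugdh, Abcc3 and Abcc4, stood in several lists.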

How the data were processed

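Liver RNA of 435 mice was hybridised to Affymetrix arrays, 1 array per mouse. The authors deposited log2 expression values made with RMA (background correction, normalization between arrays and 1 summary per probe set), per the submitters' processing notes. Its version was not given in the sources used here. Of 15397 probe sets, the 13516 with 1 gene symbol were kept, and the probe set of highest mean was used for the 134 genes with several, leaving 13379 genes. Signal over background is unknown, precision rests on how many arrays there are, and litters are not given, so mice were taken as independent. Some strongly varying liver genes were not analysed here.

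Age and sex came from the labels. The array names hold a batch code, numbered here as batches 1 to 6 (99, 138, 110, 86, 1 and 1 arrays), whose meaning is not given. Batches 1 to 4 held all 4 groups, but not evenly. Batch 1 held 35 females and 36 males of 5 weeks, and 15 and 13 of 12 weeks. In batch 2 these were 23, 20, 43 and 52. One fit of limma 3.58.1 (R 4.3.3; lmFit and eBayes) with group and batch gave the age and sex differences and their interaction. The 2 arrays alone in their batch add nothing to it. Slopes used log2 traits, except body fat percent, scaled within sex and age. The Benjamini-Hochberg adjustment of p ran over all genes. The scripts were tested on simulated data.

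The members, the 10 pathway lists and the 11 lists of cell markers were chosen with earlier results of these data known. By rule, values are given for up to 6 called members per comparison and direction, those of largest change, for up to 2 genes per list, and for other members where a sentence compares them; some of these were chosen after their values were seen. Alternatives were no batch term, plate as a random block, leaving out each batch, leaving out arrays nearer to the other sex, median centring, leaving out low genes, eBayes with trend and robust variance, the probe set of highest variance, ranked traits, and several traits or covariates together.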

Additional observations from a re-analysis of the deposited data

Results flagged for a closer look

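The age difference of 8 members differed between males and females by an interaction term in limma, each more positive in males: Gstt2 (0.38), Gsta4 (0.34), Sult1b1 (0.23), Sult1d1 (0.23), Gstm2 (0.20), Gstm4 (0.19), Gstk1 (0.11) and Ugt3a2 (0.087), all on the log2 scale. Of all genes called for this term, 768 were more positive in males and 377 more negative.

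The slope on glucose at 12 weeks differed between males and females for Sult2a8 (0.21), Gstm7 (0.094), Ugt2b37 (-0.19) and Ugt3a2 (-0.053), given as male minus female per SD. In females Sult2a8 fell with glucose (-0.15 ± 0.04) and in males the slope was 0.06 ± 0.04. The slope on insulin differed between the sexes for Ugt2b37 (0.25).

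The slope on glucose differed between ages, given as 12 minus 5 weeks, for Gstm7 (0.12), Sult1a1 (0.11), Gstm4 (0.082), Gstm6 (0.080), Gsta3 (0.051) and Ugt3a1 (-0.10). The slope on insulin differed between ages for more members. It was more positive at 12 weeks for Gstp3 (0.28), Gstm3 (0.19), Gstm2 (0.11), Gstm1 (0.070), Gstt1 (0.067) and Sult2b1 (0.039). It was more negative for Ugt2b37 (-0.18), Ugt3a1 (-0.13), Gsto1 (-0.12), Ugt2b35 (-0.11), Ugt2a3 (-0.11), Sult1a1 (-0.074), Ugt3a2 (-0.066) and Ugt2b1 (-0.060). Leaving out batch 2 ended the call of all 4 glucose terms between the sexes, of 3 glucose terms between ages (Gstm6, Gsta3 and Ugt3a1) and of 7 insulin terms between ages (Gstm1, Sult2b1, Ugt2b37, Gsto1, Ugt2b35, Sult1a1 and Ugt2b1). The Sult2a8 glucose term between the sexes also lost its call without batch 1 (adjusted p = 0.107), batch 3 (0.0598) or batch 4 (0.0566) and with no batch term (0.0651). That of Ugt2b37 did without batch 1 (0.0672), batch 3 (0.0988) or batch 4 (0.209), and that of Ugt3a2 without batch 3 (0.0964). Between ages, the glucose terms of Gstm4 and Gsta3 were lost without batch 4 and that of Gstm6 without batch 3 or 4. The insulin terms were lost for Gstm1 without any 1 of batches 1, 3 and 4, for Sult2b1 without batch 1 or 3, and for Ugt2b1 without batch 1.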

How the results depend on the processing

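Of 3317 values of called members under an alternative setting, 3006 kept their direction and call, 311 kept the direction and lost the call, and 0 changed direction. The counts of called members for the age difference, the sex difference and the age by sex term stayed within 1.5 times under every alternative run, though the genes called were not always the same: with glucose and insulin as covariates 16 members were called for sex at 12 weeks, 14 of them among the 23. Counts for slopes moved more, mostly where a batch and so part of the mice was left out. Without batch 1, 3 members were called for liver fat at 5 weeks and 2 for the sex difference of the glucose slope. Without batch 2, 8 were called for glucose at 12 weeks, 13 for insulin at 12 weeks, 10 for triglycerides at 12 weeks, 7 for the age difference of the insulin slope and 1 for insulin at 5 weeks. Without batch 3, 1 was called for liver fat at 5 weeks, 8 and 5 for body fat percent at 5 and 12 weeks, and 1 for the sex difference of the glucose slope. Without batch 4, 5 were called for glucose at 5 weeks, 4 for body fat percent at 12 weeks and 2 for the sex difference of the glucose slope.

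Insulin at 5 weeks called 4 members with no batch term, 4 with ranked traits and 6 with glucose in the fit, but 0 without batch 3 or batch 4 (9 and 12 in limma at an unadjusted p under 0.05). The sex difference of the glucose slope called 2 with insulin in the fit and 0 without batch 2 or with ranked traits (3 and 5 unadjusted). That of the insulin slope called 2 with no batch term, without batch 3, without the arrays nearer to the other sex or with trend and robust eBayes, and 0 without batches 1, 2 or 4 or with glucose in the fit (9, 6, 6 and 7 unadjusted). With glucose and insulin together, 8 were called for glucose at 12 weeks. With insulin and liver fat together, a fit chosen after seeing the data, 11 were called for insulin and 15 for liver fat at 12 weeks, and the slopes of Gstp3 and Gstm3 on both traits and of Sult2a8 on liver fat kept their calls. Where a fit had the same mice, the cause of a moved count was not tested. No paired analysis was possible because the numbers in the sample names are those of single mice and no 2 groups share one.

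Called members were recomputed in each of batches 1 to 4 alone, which are part of the fit they are set against. All 4 batches had the same sign for 22 of 25 called members for age in females, 23 of 25 in males, 25 of 26 for sex at 5 weeks, 21 of 23 at 12 weeks, 20 of 23 for liver fat and 15 of 22 for insulin at 12 weeks, and 3 of 4 did for the rest.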

Other observations

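Other genes of conjugation that the lists held also differed with age, as did 46.2% of all genes in females and 46.3% in males. Of 12 measured deconjugating and hydrolysing enzymes, among them sulfatases and carboxylesterases, 8 were higher and 2 lower at 12 weeks in females and 6 and 1 in males, with the sulfatase Arsg 0.35 ± 0.05 higher in females and the epoxide hydrolase Ephx1 0.32 ± 0.03 higher in males. Of 14 enzymes that add methyl, acetyl, glycine or taurine groups or transfer sulfur, 5 were higher and 8 lower in females and 5 and 4 in males. The histamine methyltransferase Hnmt rose by 0.40 ± 0.03 and 0.45 ± 0.03, and the sulfurtransferase Tst fell by 0.35 ± 0.02 and 0.32 ± 0.02. Nnmt fell with liver fat at 12 weeks (slope -0.27 ± 0.03). Of 11 measured PPARA targets, 8 were higher and 1 lower with age in females and 9 and 1 in males. They were led by Pex11a (1.19 ± 0.06 in females) and Vnn1 (1.08 ± 0.07 in males). Of 12 targets of the drug receptors CAR and PXR, 4 were higher and 4 lower with age in females and 5 and 3 in males. At 12 weeks, where 18.1% of all genes differed between the sexes (1200 higher and 1215 lower in males), 7 of these 12 were higher in males and 0 lower, also without adjustment in limma, led by Cyp2c55 (0.43 ± 0.07) and Ces2a (0.25 ± 0.04).

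The other marker lists gave these counts of higher and lower genes at 12 weeks, females first: stellate cells 0 and 4, then 0 and 4, of 8; neutrophils 1 and 3, then 0 and 6, of 8; lymphocytes 0 and 3, then 0 and 6, of 9; endothelial cells 2 and 4, then 3 and 3, of 12; and cholangiocytes 1 and 5, then 0 and 4, of 7. Adipocyte markers were 2 and 0 in each sex of 2, acinar 0 and 1 in each of 2, muscle 0 and 1, then 0 and 0, of 5, and the 1 erythroid gene was lower in females and not called in males. Over all genes 46.2% were called with age in females (2952 higher and 3235 lower) and 46.3% in males (2982 and 3216). At an unadjusted p under 0.05 in limma the marker counts in females were the same, except for 1 higher stellate marker. In males they were the same, except for 4 higher endothelial markers and 1 higher and 5 lower cholangiocyte markers. The slope on liver fat at 12 weeks called 26.0% of all genes (1742 positive and 1733 negative). Of the markers, 4 of 8 stellate and 4 of 12 endothelial rose with it and 0 fell (5 and 0 each without adjustment). The part of these markers in the members' slopes was not tested.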
